A study of Homo sapiens with 2 samples.

Results

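The MHC class I presentation genes described here are 9 genes whose products build, load or switch on the class I molecule. They were chosen by name, from a list of symbols matched to Ensembl identifiers on the primary assembly, and all 9 were found among the 58302 genes of the deposited count tables. Their RNA was counted by sequencing of HK-2, a line of immortalised human proximal tubule cells, at passages 7 to 11 and in medium with 10% fetal bovine serum. One culture had been infected for 24 h with adenovirus carrying the coding sequence of Bmal1, a transcription factor of the circadian clock, and the other for 24 h with adenovirus carrying green fluorescent protein (GFP), so both libraries come from infected cells and no uninfected cells were included. There was 1 library per group, labelled Ad-Bmal1 and Ad-GFP, with no replicate, so no p-value can be given and each difference below compares these 2 libraries, not the conditions. No source used here gives the dose of virus, the species of the Bmal1 sequence or the HLA alleles of the line. The labels write the line out as human kidney 3 for Ad-Bmal1 and as human kidney 2 for Ad-GFP, and whether the lines are the same was not tested.

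Class I molecules carry peptides from proteins made inside the cell to its surface, where cytotoxic T cells and natural killer cells read them. A polymorphic heavy chain pairs with the invariant light chain beta-2 microglobulin in the endoplasmic reticulum. Peptides cut by the proteasome are pumped into that compartment by the transporter TAP1 and TAP2, and tapasin bridges the transporter and the empty molecule until a peptide binds. NLRC5 enters the nucleus and raises class I genes through the enhancer elements they share, and interferon raises most genes of the pathway. Tubule cells of the kidney are known to carry class I molecules and to raise them when inflamed or infected.

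Totals were 20051735 counts (20780 genes with a count) in the library labelled Ad-Bmal1 and 20032652 counts (20709 genes) in the library labelled Ad-GFP, of which mitochondrial genes took 1.73% and 1.52%. BMAL1, the human gene of the vector's factor, had 133 counts in the library labelled Ad-Bmal1 and 204 in the library labelled Ad-GFP. Its scaled ratio was 0.667 (95% counting interval 0.532 to 0.834). The counts of this gene went against the label, so every direction below is that of the labels and carries this limit. Whether reads of the vector's Bmal1 sequence are counted under the human gene was not tested. Markers of the labelled cell type were partly present: of 8 proximal tubule genes 2 were measured, GGT1 with 4881 and 4473 counts and PAX8 with 8529 and 6502 counts in the libraries labelled Ad-Bmal1 and Ad-GFP, while AQP1, ANPEP, SLC34A1, CUBN and PAX2 were under 1 CPM (counts scaled to the size of the library) and LRP2 was at 0. Of 8 leukocyte markers only CSF1R was measured, with 407 counts in the library labelled Ad-Bmal1 and 433 in the library labelled Ad-GFP, and PTPRC, CD3E and CD68 were at 0. The 4 endothelial markers summed to 5 counts in the library labelled Ad-Bmal1 and 3 in the library labelled Ad-GFP. Of 5 epithelial markers 4 were measured, with a median log2 ratio of -0.14. Their ratios were 0.667 (0.638 to 0.698) for KRT18, 0.953 for KRT8, 0.911 for KRT19 and 0.907 for EPCAM. CDH1 was under 1 CPM, with 4 counts in the library labelled Ad-Bmal1 and 1 in the library labelled Ad-GFP. The 4 fibroblast markers had a median of 0.29, with summed levels of 100.3 and 79.0 CPM for the fibroblast markers in the libraries labelled Ad-Bmal1 and Ad-GFP. COL1A1 made up 84.8 and 63.4 CPM of these sums, DCN stood at 0.716 (0.542 to 0.943), and the intervals of LUM and PDGFRB held 1. The part of these markers in the results below was not tested.

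Promoters of 4 members, 2 heavy chain genes, the light chain gene and a loading gene, are shown to compare the enhancer letters found in each. The RefSeq promoter table (GRCh38.p14), which runs from 250 bases before to 50 bases after each start, held 8 promoters of 7 members, with 2 for TAP1. No promoter of HLA-E and NLRC5 is shown. In the lines below, capitals mark every match, on either strand, to CCAAT (the core bound by NF-Y), TGACG (part of the cyclic AMP response element), GGGATTCC (a kappa B core of the class I enhancer) or GAAA repeated after any 2 bases (the core of an interferon-stimulated response element, ISRE). The HLA-B promoter is at chr6:31357130-31357429 on the minus strand, that of HLA-C at chr6:31272043-31272342 on the minus strand, that of B2M at chr15:44711267-44711566 on the plus strand and that of TAPBP at chr6:33314029-33314328 on the minus strand. Among these lines 2 GAAA repeats in TAPBP overlap each other, as do 2 in B2M, and each such pair forms 1 run of capitals.
HLA-B: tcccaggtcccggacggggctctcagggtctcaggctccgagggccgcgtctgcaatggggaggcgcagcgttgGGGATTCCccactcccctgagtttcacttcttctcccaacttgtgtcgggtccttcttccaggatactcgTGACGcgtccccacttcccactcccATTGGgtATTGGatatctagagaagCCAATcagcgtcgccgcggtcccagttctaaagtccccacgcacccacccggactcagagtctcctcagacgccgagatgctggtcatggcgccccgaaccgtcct
HLA-C: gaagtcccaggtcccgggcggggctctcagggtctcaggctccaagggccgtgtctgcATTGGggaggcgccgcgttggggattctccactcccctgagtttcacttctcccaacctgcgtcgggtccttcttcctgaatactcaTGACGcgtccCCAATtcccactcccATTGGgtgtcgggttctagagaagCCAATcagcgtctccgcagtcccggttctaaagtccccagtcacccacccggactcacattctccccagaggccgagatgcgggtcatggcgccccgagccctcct
B2M: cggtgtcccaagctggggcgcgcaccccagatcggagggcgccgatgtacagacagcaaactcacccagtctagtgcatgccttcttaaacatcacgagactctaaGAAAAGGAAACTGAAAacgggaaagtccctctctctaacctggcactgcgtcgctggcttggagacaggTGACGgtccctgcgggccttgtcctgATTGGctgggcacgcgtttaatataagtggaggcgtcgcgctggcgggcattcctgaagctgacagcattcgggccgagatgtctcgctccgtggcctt
TAPBP: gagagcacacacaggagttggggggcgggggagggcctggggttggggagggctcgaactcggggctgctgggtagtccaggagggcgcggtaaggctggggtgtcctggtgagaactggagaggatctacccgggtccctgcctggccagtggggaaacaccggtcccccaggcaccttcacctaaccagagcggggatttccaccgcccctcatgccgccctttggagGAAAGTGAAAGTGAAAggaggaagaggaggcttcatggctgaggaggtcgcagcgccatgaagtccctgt

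Matches differed between the 7 members, and whether they follow the roles of the genes was not tested. Only exact letters were searched, so a missing match does not mean that a looser form of the element is absent. CCAAT was found in 5 of the 7 members, HLA-B, HLA-C, HLA-F, B2M and TAP1, against 34.6% of the 35116 promoters in the table. Members are counted here by a match in any of their promoters, while the shares are per promoter. This matters for TAP1 only, whose matches all lie in the first of its 2 promoters. TGACG was found in 4 of the 7, HLA-B, HLA-C, B2M and TAP2, against 24.6% of all promoters, and in the heavy chain promoters it lay 106 (HLA-B) and 105 (HLA-C) bases before the start. The GAAA repeat was found in 5 of the 7, HLA-F, B2M, TAP1, TAP2 and TAPBP, against 3.57% of all promoters. In TAPBP it lay 20 and 14 bases before the start, and in B2M 144 and 138 bases before it. GGGATTCC was found in 1 of the 7, HLA-B, against 1.12% of all promoters. CACGTG, the E-box that the CLOCK and BMAL1 pair can bind, was found in 0 of the 7, against 7.26% of all promoters, which says only that these letters are not in these windows. The promoters of HLA-B and HLA-C were identical at 90.9% of 296 aligned bases, and those of HLA-B and HLA-F at 82.4% of 295.

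Across the 9 genes, NLRC5 and TAPBP were higher and B2M was lower in the library labelled Ad-Bmal1, and the heavy chain genes HLA-B and HLA-C were nearly level. All 9 reached the minimum of 1 CPM in at least 1 library, with 130 counts (HLA-F) the lowest value, so none entered through a single library alone. Their ratios, Ad-Bmal1 over Ad-GFP after TMM scaling of the libraries, ran between 0.806 and 1.69 with a median of 1.06 (log2 0.09), beside a median of 1.00 (log2 0.00) over all 13231 measured genes. By counting error alone, 3 of the 9 had an interval above 1, beside 23.8% of all measured genes, and 1 had an interval below 1, beside 21.6%. Such intervals narrow with depth, and among genes with 1000 or more counts these shares were 37.2% and 27.6%. No member reached a 2-fold difference with an interval that excluded 1, which 2.86% of measured genes did in either direction, 1.13% higher and 1.74% lower. Of the 9 ratios 6 were above 1, beside 50.4% of all measured genes. At 1.5-fold 1 member was higher (NLRC5), beside 4.41% of measured genes, and 0 were lower, beside 4.9%. At 1.2-fold 2 were higher (NLRC5 and TAPBP), beside 14.2%, and 0 were lower, beside 13.7%. Among genes with 1000 or more counts over both libraries, 26.7% were past 1.2-fold in either direction, and 1 of the 6 members of that depth (TAPBP) was. With 9 genes, shares this close to the background are no result about the members as a set.

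**Figure D1:**
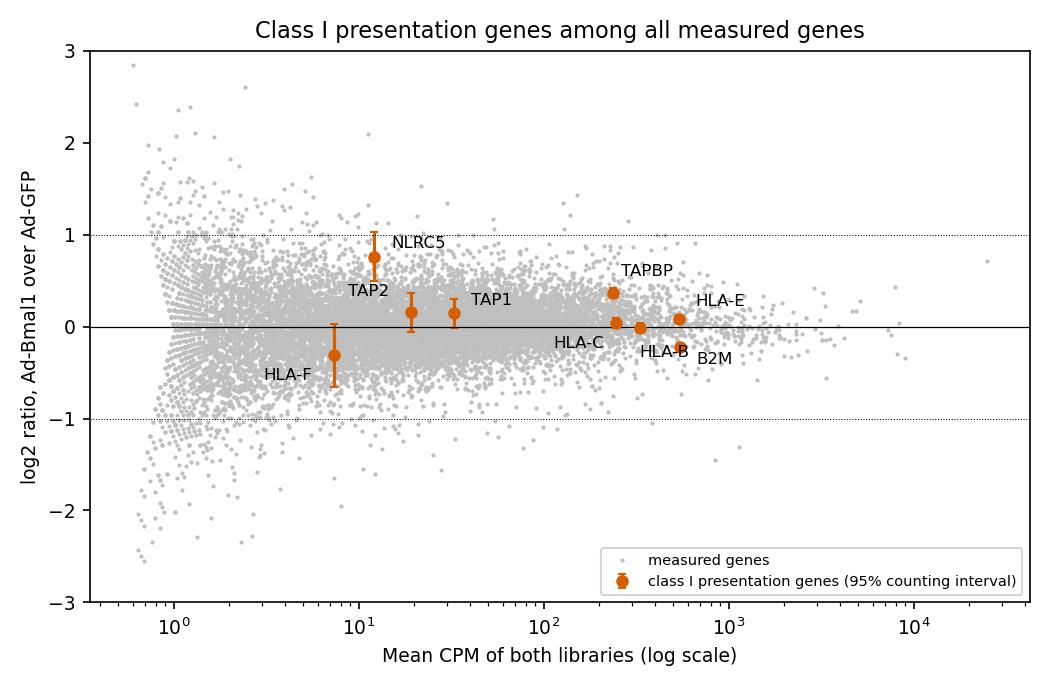
Log2 ratio of the library labelled Ad-Bmal1 over the library labelled Ad-GFP (vertical axis) against the mean CPM of both libraries (horizontal axis, log scale). Grey points are measured genes, with 6 beyond the plotted range of -3 to 3 left out, orange points are the 9 class I presentation genes with 95% counting intervals, and dotted lines mark 2-fold. NLRC5 sits near the upper edge of the cloud at its abundance, while HLA-B and HLA-C lie close to the line of no difference.

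The heavy chains HLA-B and HLA-C, the classical molecules that show most peptides to T cells, were the members closest to a ratio of 1. HLA-B (ENSG00000234745, chromosome 6, 31269491 to 31357188, minus strand) had 6525 counts in the library labelled Ad-Bmal1 and 6739 in the library labelled Ad-GFP, a ratio of 0.991 (0.957 to 1.03). HLA-C (ENSG00000204525, chromosome 6, 31268749 to 31272130, minus strand), also a main ligand of inhibitory receptors on natural killer cells, had 4958 counts in the library labelled Ad-Bmal1 and 4940 in that labelled Ad-GFP, a ratio of 1.03 (0.987 to 1.07). Their intervals held 1, and the summed counts of the pair had a ratio of 1.01 (0.980 to 1.03), so any difference lay within counting error at this depth. The count of HLA-C relative to HLA-B, which no scaling touches, was 0.760 in the library labelled Ad-Bmal1 and 0.733 in the library labelled Ad-GFP, and the interval of their ratio (1.04, 0.984 to 1.09) held 1. With the trend of ratios on transcript length removed, HLA-B turned to 1.06 (1.02 to 1.09) and HLA-C to 1.10 (1.05 to 1.14), so the side of 1 on which HLA-B lies is uncertain.

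HLA-E and HLA-F are heavy chains of little variation between people, and they differed in direction here. HLA-E (ENSG00000204592, chromosome 6, 30489467 to 30494205, plus strand), which presents leader peptides of other class I chains to the NKG2A receptor of natural killer cells, had 10954 counts in the library labelled Ad-Bmal1 and 10549 in the library labelled Ad-GFP. Its ratio of 1.06 (1.03 to 1.09) had an interval above 1, and 61.3% of measured genes had a lower ratio. HLA-F (ENSG00000204642, chromosome 6, 29722775 to 29738528, plus strand), which can reach the surface without peptide, had 130 counts in the library labelled Ad-Bmal1 and 165 in that labelled Ad-GFP, a ratio of 0.806 (0.636 to 1.02) whose interval held 1. HLA-F relative to HLA-E was 0.759 times as high in the library labelled Ad-Bmal1 (0.597 to 0.962). HLA-F-AS1, a noncoding gene that overlaps HLA-F by 11928 bases on the opposite strand, had 13 counts in the library labelled Ad-Bmal1 and 30 in the library labelled Ad-GFP. No source used here gives the strand setting of the counting, so reads cannot be told apart where exons of HLA-F and HLA-F-AS1 overlap. The overlap of these exons was not measured.

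Summed over HLA-B, HLA-C, HLA-E and HLA-F, the heavy chains had 22567 counts in the library labelled Ad-Bmal1 and 22393 in the library labelled Ad-GFP. The ratio was 1.03 (1.01 to 1.05), and under scaling by total counts it was 1.01 (0.988 to 1.03), so its excess over 1 depends on the scaling. The transcripts of HLA-B and HLA-C were identical at 92.6% of 1532 aligned bases, and those of HLA-E and HLA-F at 79.2% of 1415. In the reference no stretch of 150 bases, the length of a read, was shared by the longest coding transcript of any of these 4 genes with another gene, and at 50 bases 2.54% of HLA-B and 6.71% of HLA-C stretches were. Transcripts were compared in the sense direction only, so stretches shared with genes of the opposite strand, such as HLA-F-AS1, were not tested. The annotated gene bodies of HLA-B and HLA-C overlap by 2640 bases on the same strand in GENCODE v29, and the effect of this on their counts was not tested. HK-2 alleles may differ from the reference, and what that does to these counts was not tested.

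B2M, which encodes the light chain that every class I heavy chain needs in order to fold and leave the endoplasmic reticulum, was the member whose counting interval lay below 1. B2M (ENSG00000166710, chromosome 15, 44711487 to 44718877, plus strand) had 9964 counts in the library labelled Ad-Bmal1 and 11900 in the library labelled Ad-GFP, a ratio of 0.857 (0.834 to 0.880). Of the 500 measured genes nearest in abundance 10.2% had a lower ratio, and their central 95% of ratios ran from 0.718 to 1.498, so B2M lay within the spread of genes of its level. Per transcript length B2M was 0.4995 times the summed level of the 4 heavy chains in the library labelled Ad-Bmal1 and 0.597 times in the library labelled Ad-GFP. By counts, B2M relative to the 4 heavy chains was 0.442 in the library labelled Ad-Bmal1 and 0.531 in the library labelled Ad-GFP. This balance of counts, free of the scaling, was 0.831 times as high in the library labelled Ad-Bmal1 (0.804 to 0.858). B2M has a short transcript of 1705 bases with 39.4% G and C, the lowest share among the members. Removal of the length trend brought its ratio to 0.912 (0.888 to 0.937) and removal of length and GC trends to 0.937 (0.912 to 0.962), still below 1.

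TAP1 and TAP2, the paired subunits of the peptide pump, had nearly the same small excess. TAP1 (ENSG00000168394, chromosome 6, 32845209 to 32853978, minus strand) had 686 counts in the library labelled Ad-Bmal1 and 634 in the library labelled Ad-GFP, a ratio of 1.11 (0.992 to 1.24). TAP2 (ENSG00000204267, chromosome 6, 32821833 to 32838780, minus strand) had 400 counts in the library labelled Ad-Bmal1 and 368 in that labelled Ad-GFP, a ratio of 1.11 (0.963 to 1.28). Each interval held 1, while that of their summed counts, 1086 and 1002, did not (1.11, 1.02 to 1.21), and it held 1 under 3 of 7 other settings. TAP1 relative to TAP2 stood at 1.72 in each library by counts (1.715 in the library labelled Ad-Bmal1 and 1.723 in the library labelled Ad-GFP).

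The neighbours of the TAP genes limit these values. In GENCODE v29 the whole gene body of TAP1, 8770 bases, lies within that of PSMB9, an immunoproteasome subunit gene read from the opposite strand. PSMB9 went the other way, with 996 counts in the library labelled Ad-Bmal1 and 1134 in the library labelled Ad-GFP, and TAP1 relative to PSMB9 was 1.23 times as high in the library labelled Ad-Bmal1 (1.07 to 1.42). Their transcripts differ in length (2959 bases for TAP1 and 792 for PSMB9), and the part of the length trend in this balance was not tested. Without the strand setting, reads cannot be told apart where exons of TAP1 and PSMB9 overlap. The overlap of their exons was not measured. Of the 150-base stretches of the TAP2 transcript 34.6% also occur in transcripts of AL669918.1, a gene model over TAP2 on the same strand that had 0 counts in each library, and the effect of that overlap on the counts of TAP2 was not tested.

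TAPBP, which encodes tapasin, the bridge that holds class I molecules at the transporter and edits their peptides, was higher in the library labelled Ad-Bmal1. TAPBP (ENSG00000231925, chromosome 6, 33299694 to 33314387, minus strand) had 5260 counts in the library labelled Ad-Bmal1 and 4179 in the library labelled Ad-GFP, a ratio of 1.29 (1.24 to 1.34). Its ratio ran between 1.26 and 1.29 over all settings tried, with each interval above 1. Of the 500 genes nearest in abundance 90.4% had a lower ratio, and their central 95% reached 1.62, so TAPBP lay within their spread. TAPBP relative to TAP1 and TAP2 together was 1.16 times as high in the library labelled Ad-Bmal1 (1.05 to 1.28), and TAPBP relative to B2M 1.503 times (1.43 to 1.58). The loading gene and the light chain gene therefore differed from each other by more than counting error, and this balance is free of the scaling. It is not free of the length and GC trends. With both trends removed the ratios lay closer together, at 1.27 (1.21 to 1.32) for TAPBP and 0.937 (0.912 to 0.962) for B2M. The part of these trends in the balance was not tested.

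NLRC5, the transactivator of class I genes, had the ratio farthest from 1 on the log2 scale and the lowest level per length of the 9. NLRC5 (ENSG00000140853, chromosome 16, 56989485 to 57083531, plus strand) had 303 counts in the library labelled Ad-Bmal1 and 183 in the library labelled Ad-GFP, a ratio of 1.69 (1.41 to 2.05, log2 0.76). Of all measured genes 97.1% had a lower ratio, as had 98.8% of the 500 nearest in abundance, whose central 95% ended at 1.56. Over the settings tried the ratio ran between 1.54 and 1.70, lowest with length and GC trends removed. NLRC5 has the longest transcript of the 9 (6822 bases). NLRC5 relative to the 4 heavy chains was 1.64 times as high in the library labelled Ad-Bmal1 (1.36 to 1.99). Ratios of the heavy chain genes, which NLRC5 is known to raise, were much smaller, between 0.806 and 1.06. Its relatives in the NLR family were below 1, with ratios between 0.943 and 0.965 for NLRP1 (526 and 571 counts in the libraries labelled Ad-Bmal1 and Ad-GFP), NLRX1 (299 and 317) and NOD1 (76 and 82), and all 3 intervals held 1.

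Per transcript length, in TPM (a level scaled to transcript length and to library size), the genes stood in the same order in both libraries. B2M led with 627 TPM in the library labelled Ad-Bmal1 and 719 in the library labelled Ad-GFP. HLA-B had 453 and 449 TPM, HLA-E 452 and 418 and HLA-C 342 and 327, each in the libraries labelled Ad-Bmal1 and Ad-GFP, and TAPBP followed with 150.1 and 115. TAP1 (24.9 and 22.1 TPM), HLA-F (8.53 and 10.4), TAP2 (7.55 and 6.67) and NLRC5 (4.77 and 2.76) were far below. In the library labelled Ad-Bmal1 the neighbours HLA-B and HLA-E could not be ranked (level ratio 1.00, 0.971 to 1.03), nor could HLA-F and TAP2 (1.13, 0.920 to 1.38). In the library labelled Ad-GFP every gene lay above the next by more than counting error, with HLA-B over HLA-E the closest at 1.07 (1.04 to 1.11). These levels rest on the longest coding transcript, which need not be the one expressed.

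**Figure D2:**
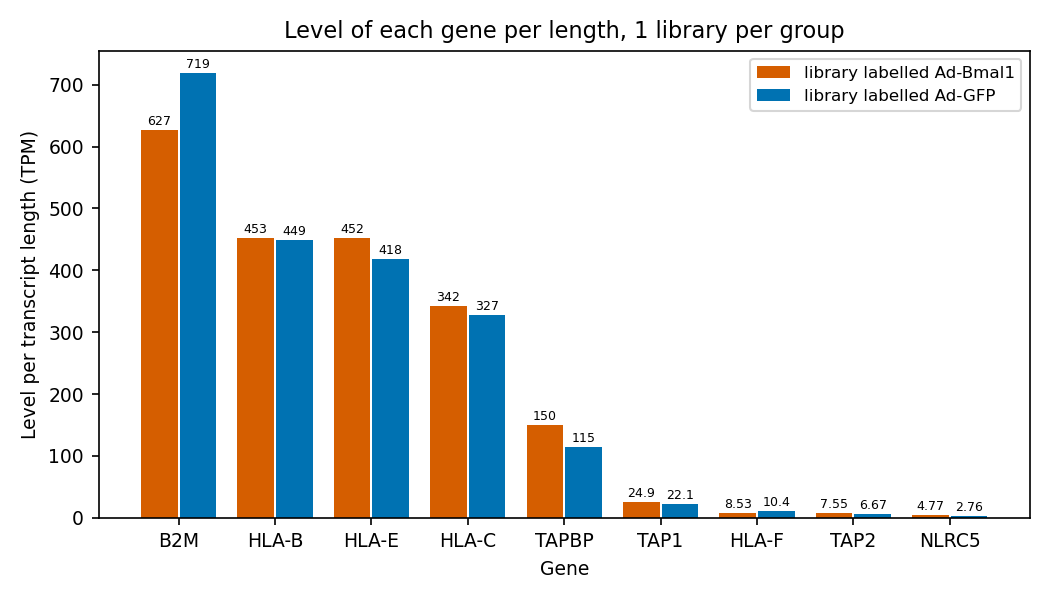
Level per transcript length in TPM (vertical axis, from 0) of the 9 class I presentation genes, with the library labelled Ad-Bmal1 in orange on the left of each pair and the library labelled Ad-GFP in blue on the right. Each bar is 1 library and has no error bar. B2M is the tallest pair with the lower bar in the library labelled Ad-Bmal1 (627 against 719 TPM), and TAPBP shows the opposite order (150.1 against 115 TPM).

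Of the genes that trim peptides and load them beside tapasin, 14 of 14 were measured, with a median log2 ratio of 0.09 against 0.00 for all measured genes. Intervals lay above 1 for 8, beside 23.8% of all measured genes, and below 1 for 4, beside 21.6%, and none differed 2-fold. Many genes of this list are deep, and among genes with 1000 or more counts these shares were 37.2% and 27.6%. The chaperones of the loading complex were slightly higher in the library labelled Ad-Bmal1, with 63626 and 62066 counts in the libraries labelled Ad-Bmal1 and Ad-GFP for calreticulin, CALR (1.05, 1.04 to 1.06), 10223 and 10068 for the disulfide isomerase PDIA3 (1.04, 1.01 to 1.07) and 7956 and 7389 for calnexin, CANX (1.10, 1.07 to 1.14). The glucosidase subunit GANAB stood at 1.07 (1.04 to 1.09). At 1.2-fold the genes named next were chosen after their values were seen. Those lower were the trimming aminopeptidases of the endoplasmic reticulum ERAP1 (622 and 764 counts, 0.833, 0.748 to 0.927) and ERAP2 (308 and 394, 0.7999, 0.687 to 0.931) and the peptide editor TAPBPL (178 and 225, 0.809, 0.661 to 0.990). Those higher were the cytosolic peptidases NPEPPS (1.24, 1.17 to 1.31) and BLMH (1.27, 1.16 to 1.39).

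The 3 interferon-inducible catalytic subunits of the immunoproteasome, which shape peptides for class I binding, were all below a ratio of 1. So were 6563 of the 13231 measured genes. PSMB8 had 1580 counts in the library labelled Ad-Bmal1 and 1807 in the library labelled Ad-GFP (0.895, 0.836 to 0.958), PSMB9 stood at 0.899 (0.825 to 0.979) and PSMB10 at 0.762 (0.651 to 0.891). The activator genes PSME1 (0.944, 0.905 to 0.985), PSME2 (1.05, 1.00 to 1.10) and PSME3 (1.19, 1.15 to 1.24) spread around 1, and the list of 6 had a median log2 ratio of -0.12. PSMB8, PSMB9 and PSMB10 have short transcripts of 1351, 792 and 1218 bases. With the length trend removed the median of the list was -0.03, and with length and GC trends removed it was -0.05. Of the constitutive subunits, PSMB5 stood at 1.16 (1.12 to 1.201), PSMB7 at 1.10 (1.07 to 1.14) and PSMB6 at 0.898 (0.858 to 0.940), with a median of 0.14.

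Factors that act on class I promoters were split, with 17 of 18 measured and a median log2 ratio of -0.06. Intervals lay above 1 for 5 and below 1 for 3, near the shares of all measured genes (23.8% above and 21.6% below). IRF1, which binds the ISRE, had 360 counts in the library labelled Ad-Bmal1 and 438 in that labelled Ad-GFP (0.841, 0.729 to 0.969). The NF-kB subunit RELA stood at 1.12 (1.05 to 1.199). Of the RFX proteins, which NLRC5 joins at class I enhancers, RFX5 stood at 1.13 (1.05 to 1.22) and RFXANK at 1.05 (0.967 to 1.13). RFXAP lay on the other side of 1 at 0.888 (0.616 to 1.28), with 59 and 68 counts in the libraries labelled Ad-Bmal1 and Ad-GFP. The intervals of RFXANK and RFXAP held 1. Genes past 1.2-fold included ATF1, a cyclic AMP response factor (1.34, 1.08 to 1.66), on the higher side and the NF-Y subunit NFYC (0.802, 0.704 to 0.913) on the lower side, both picked after their values were seen.

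Interferon signalling genes were centred on 1, with 8 of 12 measured and a median log2 ratio of 0.00. Intervals lay above 1 for 1 gene, the kinase JAK1 (1.04, 1.01 to 1.08), and below 1 for 2, the receptor chain IFNGR2 (0.864, 0.782 to 0.954) and the feedback inhibitor SOCS3 (0.921, 0.856 to 0.991), while the kinase TYK2 stood at 1.00 (0.939 to 1.07). The interferon genes IFNB1, IFNG and IFNL1 had 0 counts in each library, which allows up to 0.151 CPM in the library labelled Ad-Bmal1 and 0.148 CPM in the library labelled Ad-GFP.

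Genes that remove class I molecules from the surface had a median log2 ratio of -0.24. Of 6 intervals 4 lay below 1, beside 21.6% of all measured genes, and 1 above, beside 23.8%. Among genes with 1000 or more counts these shares were 27.6% and 37.2%. With 6 genes this describes the list only. The ubiquitin ligase genes MARCHF4 (389 and 609 counts in the libraries labelled Ad-Bmal1 and Ad-GFP, 0.654, 0.574 to 0.743) and MARCHF9 (129 and 198, 0.667, 0.530 to 0.836) were the lowest of them. MARCHF8, a related ligase, stood at 0.843 (0.757 to 0.939). WWP2 and TMEM127, reported to act together on class I turnover, stood at 0.856 (0.784 to 0.935) and 1.18 (1.10 to 1.27). SUSD6, of the same complex, stood at 1.02 (0.894 to 1.17), and none of the 6 was 2-fold different.

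Other partners of beta-2 microglobulin did not follow a common direction. FCGRT, the heavy chain of the neonatal Fc receptor that recycles antibody and albumin, had 311 counts in the library labelled Ad-Bmal1 and 580 in the library labelled Ad-GFP (0.549, 0.476 to 0.631), a lower ratio than any of the 9 members. MR1, which presents vitamin metabolites, stood at 1.11 (0.960 to 1.28) and HFE, which tunes iron uptake, at 1.05 (0.917 to 1.19). HLA-G, a heavy chain of the placenta, had 0 counts in each library. The class I pseudogenes HLA-H (104 and 129 counts in the libraries labelled Ad-Bmal1 and Ad-GFP, 0.825, 0.631 to 1.08), HLA-K (288 and 340, 0.867, 0.738 to 1.02) and HLA-L (41 and 55, 0.763, 0.496 to 1.16) had intervals that held 1. How reads were shared between pseudogenes and genes was not tested.

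In the class II pathway, which serves professional antigen-presenting cells, 4 of 10 listed genes were measured. CIITA, the class II counterpart of NLRC5, had 4 counts in the library labelled Ad-Bmal1 and 5 in the library labelled Ad-GFP, below the minimum. CTSS, a protease of the class II route, stood at 0.703 (0.648 to 0.763), the invariant chain gene CD74 at 0.803 (0.735 to 0.878) and the peptide exchanger subunit HLA-DMA at 0.818 (0.683 to 0.979). Its partner HLA-DMB went the other way, with 395 and 255 counts in the libraries labelled Ad-Bmal1 and Ad-GFP (1.58, 1.35 to 1.86).

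**Figure D3:**
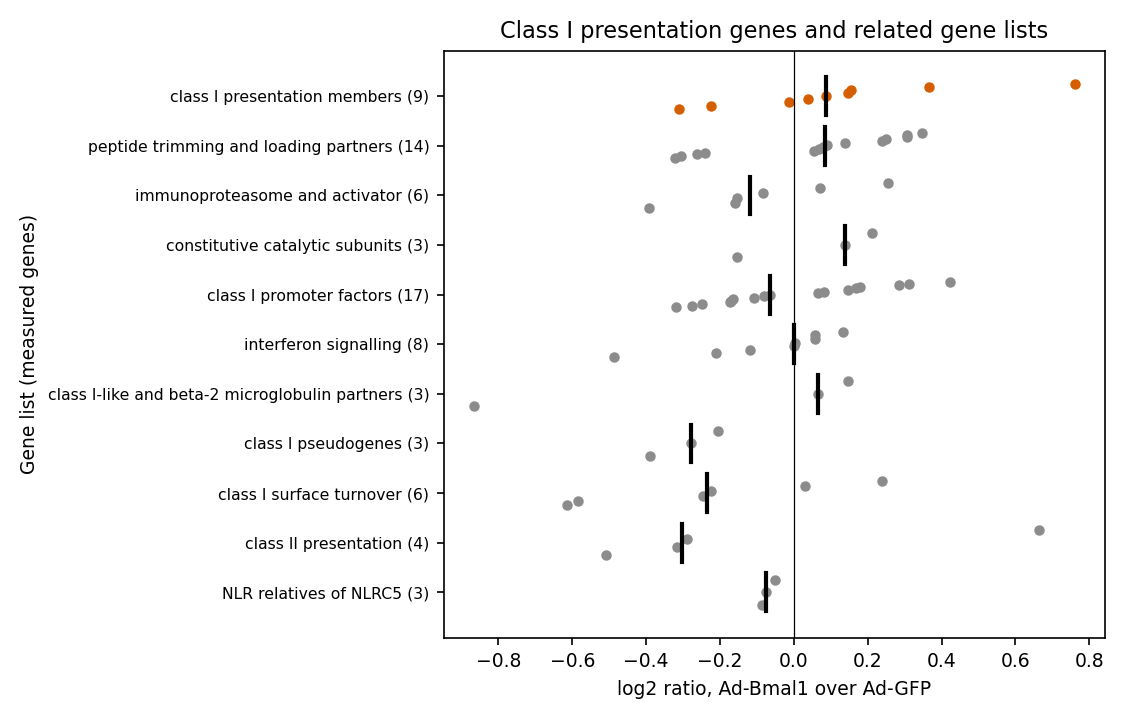
Log2 ratio of the library labelled Ad-Bmal1 over the library labelled Ad-GFP (horizontal axis) for each measured gene of the 9 class I presentation genes (orange, top) and of 10 related lists (grey), with the number of measured genes in brackets and a black bar at the list median. Medians run between -0.30 for class II presentation and 0.14 for the constitutive catalytic subunits, and the presentation genes have a median of 0.09 with NLRC5 farthest right at 0.76.

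Neighbouring genes give a local comparison for the members on chromosome 6. The 7 members on chromosome 6 lie between 29722775 and 33314387 with 90 other measured genes, whose median ratio was 1.02 with a middle range (25th to 75th percentile) of 0.904 to 1.21, against a median of 1.06 for the members. Of these 90, 49 had ratios above 1 and 41 below. The 2-fold rule was met by 5 of them, beside 2.86% of all measured genes. They are named here after their values were seen. MICB, a stress ligand, was higher, with 3437 counts in the library labelled Ad-Bmal1 and 1685 in the library labelled Ad-GFP (2.09, 1.97 to 2.21). GPSM3 was lower, with 157 and 325 counts in that order (0.494, 0.406 to 0.600). HLA-F-AS1 (13 and 30 counts), ATP6V1G2 (14 and 37) and COL11A2 (9 and 21) reached 1 CPM only in the library labelled Ad-GFP. Their lower direction was therefore set by the minimum and is no result.

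**Figure D4:**
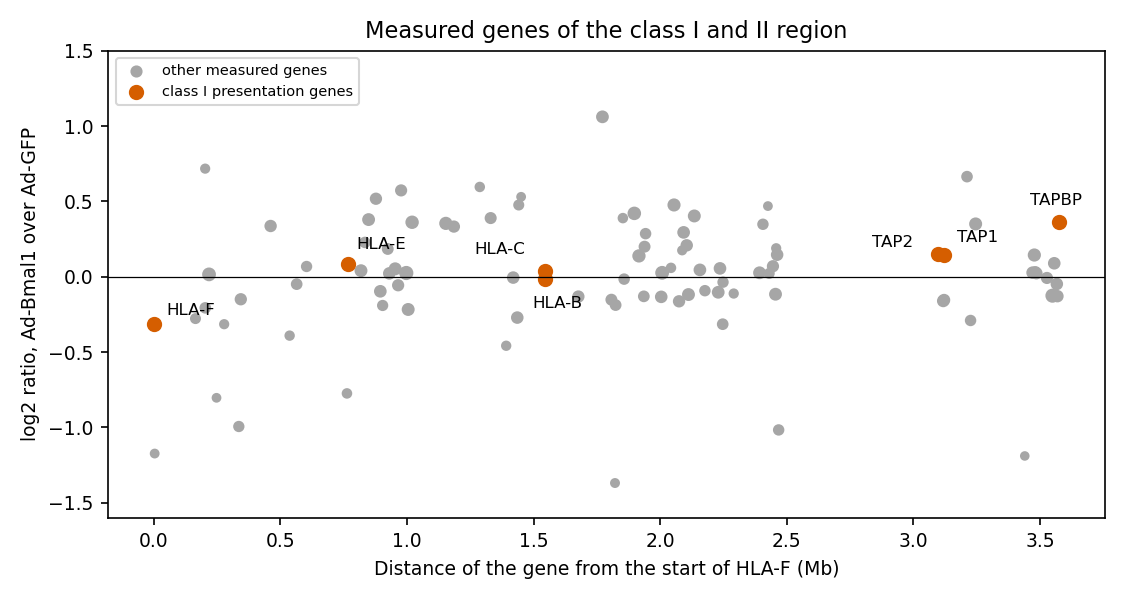
Log2 ratio of the library labelled Ad-Bmal1 over the library labelled Ad-GFP (vertical axis) for measured genes of the class I and class II region of chromosome 6, by distance from the start of HLA-F in megabases (horizontal axis). Orange points are the 7 class I presentation genes of the region and grey points the 90 other measured genes, sized by their counts. The members lie among their neighbours on both sides of 0, with TAPBP highest at 0.36 and HLA-F lowest at -0.31.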

How the data were processed

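Polyadenylated RNA of HK-2 cells was sequenced in 150 bp paired reads, according to the labels' protocols. The deposited values are raw counts per Ensembl gene, all whole numbers and without normalisation by the authors as far as can be seen. The submitters' processing notes name HISAT2 and the build GRCh38 (hg38). Which tool counted the reads, with which annotation and strand setting, is not given in the sources used here. The 2 groups were taken from the sample titles, with 1 library each.

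TMM scaling came from edgeR 4.0.16 (R 4.3.3). There were 0 residual degrees of freedom, so no quasi-likelihood test was fitted, and each gene has the ratio of its scaled counts with a 95% interval, exact by the conditional binomial method of Clopper and Pearson. Intervals of within-library balances come from the exact conditional odds ratio. Intervals and the floor of 3 counts cover counting error only, and since reads carried no molecular identifiers they need not be separate molecules. A gene was measured at 1 CPM in at least 1 library, worth 19.8 counts in the library labelled Ad-Bmal1 and 20.3 in the library labelled Ad-GFP, and called at 2-fold with an interval that excluded 1.

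Coordinates, transcript lengths and GC shares are from GENCODE v29 (GRCh38), which held 99.5% of the 58302 identifiers. Promoters are from RefSeq. Named are all members, BMAL1 and, of each other list, every gene past 2-fold and up to 4 of highest count, and any further gene was chosen after its values were seen. The values of some genes under this rule are not reported here. The members and the 15 lists beside them were chosen with earlier results of these data known. Steps ran in Python 3.11.15 with numpy 2.4.6, pandas 2.3.3, scipy 1.17.1 and statsmodels 0.14.6. The alternatives comprised size factors of DESeq2 1.42.0, scaling by total counts or upper quartile, totals that leave out mitochondrial genes and the 20 of highest count, thinning of the deeper library, a prior count of 2, minimums of 0 and 10 CPM, folds of 1.2 and 1.5, an interval wholly beyond 2-fold, genes with 1000 or more counts as background, and removal of a lowess trend on transcript length. Removal of length and GC trends together was added after seeing the data.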

Additional observations from a re-analysis of the deposited data

How the results depend on the processing

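Over 289 values recomputed under the alternatives, 254 stayed within the counting interval of the reported value, or within 0.1 (log2) for a median or 1.5 times for a count, and 35 moved. Over the 9 settings for ratios, the reported one included, HLA-E, TAPBP and NLRC5 had 9 of 9 intervals above 1 and B2M 9 of 9 below 1, while HLA-F had 1 below 1, TAP1 1 above 1 and TAP2 0. Scaling by total counts gave 1.01 for the summed heavy chains and 0.19 for the fibroblast marker median. With the length trend removed the ratios were 1.06 for HLA-B, 1.10 for HLA-C, 1.09 for HLA-E, 0.912 for B2M, 1.07 for HLA-B and HLA-C summed and 1.09 for the heavy chains summed, and the median of class I-like genes was -0.015. With length and GC trends removed they were 1.05 for HLA-B, 1.09 for HLA-C, 0.937 for B2M, 1.07 and 1.08 for those sums, and the medians were 0.014 for promoter factors and -0.17 for class I pseudogenes. The cause of these moves was not tested.

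Members past the fold rule stayed at 0 in each direction except at 1.5-fold (1 higher) and 1.2-fold (2 higher). Of all genes 149 were higher and 230 lower at 2-fold, against 583 and 648 at 1.5-fold, 1879 and 1809 at 1.2-fold, 23 and 28 with the interval wholly beyond 2-fold, 292 and 382 with no minimum, 21 and 38 at 10 CPM, and 8 and 14 among genes with 1000 or more counts. With no minimum the medians were 0.00079 for promoter factors, 0.16 for proximal tubule markers and -1.01 for leukocyte markers, and at 10 CPM 0.00079 for promoter factors and 0.42 for fibroblast markers, where the filter leaves other genes. The median of all measured genes ran between -0.03 (total counts) and 0.014 (minimum of 10 CPM).

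No paired analysis was possible because each group has 1 library. Leaving out a library was not possible for the same reason. Depth limits HLA-F, TAP1 and TAP2, whose counting intervals hold 1.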
